A study of Mus musculus with 8 samples.

Results

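The comparison of dexamethasone (DEX) with no DEX in progenitors carrying a control virus rests on 4 of the 8 arrays of the series, chosen by their titles: 2 control-virus arrays with DEX and 2 without. The cells were early erythroid progenitors from C57BL/6 fetal liver at E14.5. Lineage, Sca-1, CD16/32, CD41 and CD34 positive cells had been depleted, and c-kit positive cells among the lowest 10% for CD71 were then sorted. All were infected and then kept in culture for 3 days, so the groups without DEX were also infected and cultured. The remaining 4 arrays, all with DEX, carried hairpins to an RNA-binding protein (2 arrays with shRNA1, 2 with shRNA2). They entered the fit to estimate the spread but are not compared here. From knowledge of the published study that protein is Zfp36l2, which the labels do not name. The labels give no dose of DEX, and do not say whether the replicates were separate cultures or animals, so p-values reflect array-to-array spread that may be technical.

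DEX is a synthetic glucocorticoid. It enters the cell and binds the glucocorticoid receptor, encoded by Nr3c1, which moves to the nucleus and raises or lowers transcription at the sites it occupies. In erythroid progenitors glucocorticoids are known to favour renewal of early, Kit-bearing cells over maturation into haemoglobin-filled cells, and they are part of stress erythropoiesis. They also act widely on inflammation and metabolism.

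Signal is given as log2 of the processed intensity minus the 75th percentile of its array, so a level of 0 marks the 75th percentile, and a difference of 1 is a 2-fold change. A level can be compared between arrays for one gene, not between genes. On the 4 control-virus arrays 60.6% to 62.5% of 39429 probes were well above background, and 0 were saturated. Replicates 1 and 2 of every group lay on slides 1 and 2. The cells carried erythroid genes: Gata1 lay between 5.25 and 5.64, Epor between 4.92 and 5.28 and the alpha globin gene Hba-a1 between 7.92 and 9.13 on the 4 arrays. The hepatocyte genes Alb and Ttr, the lymphoid gene Cd3d, the endothelial gene Cdh5 and the macrophage genes C1qa and Mrc1 did not pass the filter on dim probes. Other genes listed for these cell types did pass: 15 of 30 for fetal liver plasma proteins, 10 of 23 lymphoid, 8 of 19 endothelial and stromal. So did 14 of 25 monocyte and macrophage genes, with Csf1r at 1.82 and 1.95 without DEX. Absence of these cell types is therefore not shown. Granulocyte genes did give signal, with Mpo at 3.62 and 5.80 without DEX and 3.42 and 4.19 with DEX.

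Of 19130 genes tested, 44 (0.23%) differed with DEX in limma with the slide as a block at an adjusted p below 0.05, 27 of them higher (0.141%) and 17 lower (0.0889%). Of these 44, 42 had a gene symbol, and their measured differences were at least 3.99-fold (Gpr174), with at least 2-fold on both slides. All 4 control-virus arrays were well above background for 31 of the 44. For the others the p-value rests in part on measured signal at or near background, and tests no bound. In the limma fit lacking a block 0 genes passed, the smallest adjusted p being 0.154, and 594 (3.11%) had an unadjusted p below 0.05. The block mattered because arrays of one slide shared deviations, with r = 0.67 between the groups with and without DEX across genes. Slide and replicate number coincide, so an effect of the slide and one of a shared cell preparation cannot be told apart. The 44 calls rest on every control-virus array: 2 genes passed without replicate 1 of the untreated group, 1 of them among the 44, and 0 without replicate 2 of it or without either DEX array. They rest on the spread among the shRNA1 arrays too, with 0 calls without either of them, whereas 130, including all 44, passed without either shRNA2 array. In what follows a gene rose or fell only if it is among the 44.

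A wider set is described without a test. At least 2-fold differences in one direction on both slides were found for 714 genes (3.73%), 321 genes with more signal under DEX (1.68%) and 393 with less (2.05%), and 58 (0.303%) differed by 2-fold in opposite directions. Among these 2-fold genes, 89 were at least 4-fold higher and 63 at least 4-fold lower on both slides. All 4 arrays were well above background for 224 of the 321 and 299 of the 393. Across all genes the median difference was -0.08 (-0.10 on slide 1 and -0.03 on slide 2), and 38.4% of genes were higher in the mean. The sign of this median depends on the scaling. It was 0.02 with the array median as the scale and -0.02 with quantile scaling, and the share higher in the mean depends on the scaling too. These shares over all genes are the background for the counts of each gene list below. The lists were chosen with earlier results of these data known, so their counts are not a test of enrichment.

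**Figure D1:**
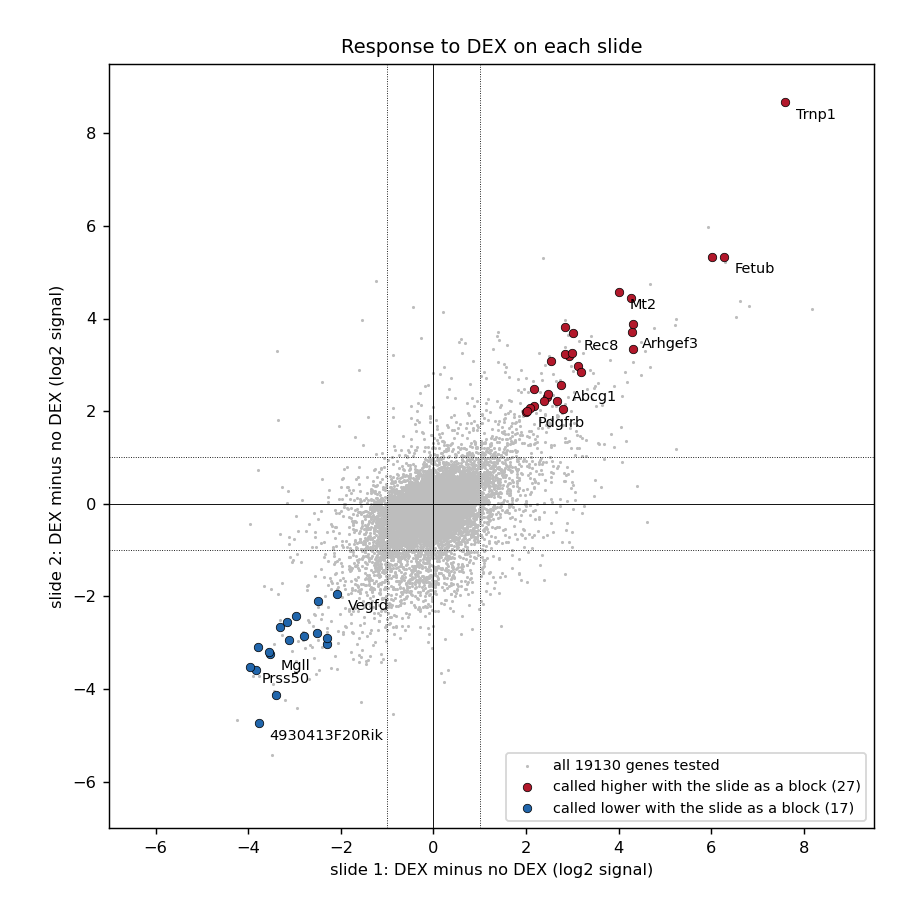
Log2 difference between DEX and no DEX on slide 1 (horizontal axis) and slide 2 (vertical axis) for each of 19130 genes, with dotted lines at a 2-fold difference. The 27 genes called higher and the 17 called lower lie beyond 2-fold on both slides; where a gene was not well above background in one group, its plotted difference is a measured value and its fold is known only as a bound.

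Several of the genes that rose take part in signal transduction. Arhgef3, an exchange factor that activates small GTPases (probe at chr14:28216851-28216910, mm9), had levels of -1.51 and -1.40 without DEX and 2.76 and 2.31 with it. The difference was 3.99 (SE 0.23), a 15.9-fold rise (limma with the slide block, adjusted p = 0.0288), and the groups were far apart on both slides. It also had the smallest p without the block (adjusted p = 0.154). Rasd1, a Ras-like GTPase whose name records its induction by dexamethasone (chr11:59777222-59777281), lay at -5.69 and -7.31 without DEX and -1.42 and -2.88 with DEX. Only 1 of the 2 arrays without DEX was well above background for it, so its 4.35 difference (adjusted p = 0.0288) starts from a level near background. Gna14, an alpha subunit of the Gq family, went from -2.67 and -3.22 to 0.16 and 0.01, a rise of 8.15-fold (SE 0.23 on the log2 scale). Mst1r, the receptor tyrosine kinase for macrophage-stimulating protein, was at -4.05 and -6.54 without DEX, where 1 of 2 arrays was well above background, and at 0.27 and -2.66 with DEX. Its 2 groups did not overlap, although the nearest arrays of the groups, from different slides, were 1.39 apart. Epha2, an ephrin receptor kinase, rose 5.35-fold, and Pdgfrb, the beta receptor for platelet-derived growth factor, 4.04-fold with near-identical differences of 2.02 and 2.01 on the slides. Further signalling genes were Camk1d, a calmodulin-dependent kinase (5.45-fold), Gpr174, a G protein-coupled receptor for lysophosphatidylserine (3.99-fold), and Cables1, an adaptor of cyclin-dependent kinases (4.42-fold).

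Genes of other kinds rose as well, among them some for secreted, matrix and surface proteins. Trnp1, a nuclear protein studied in neural progenitors (chr4:133047017-133047076), was not well above background without DEX (-6.82 and -6.58) and lay at 0.78 and 2.08 with it. Its measured difference was 8.13 with this probe but 5.66 with its other tested probe. Taking the lowest signal well above background as the floor, the first probe was at least 210.04-fold higher with the processing used here. Such bounds were at least 36.8-fold for Fetub, a plasma protease inhibitor (0 of 2 arrays detected without DEX; -0.23 and -1.94 with it), and at least 27.3-fold for Adamts14, a protease that trims procollagen (-0.93 and -2.10 with DEX). Tnr, tenascin-R of the matrix, was at least 11.1-fold higher. The metalloprotease gene Adam33 rose from -2.92 and -3.48 to 0.20 and -0.49. Acp5, a tartrate-resistant acid phosphatase best known from osteoclasts and macrophages, was at 2.79 and 2.57 without DEX and 5.71 and 5.77 with DEX, an 8.32-fold rise, and its other probe differed by 3.10. Cd48, a surface protein of the SLAM family used to sort haematopoietic progenitors, rose 5.20-fold, from -0.12 and 0.58 to 2.34 and 2.88.

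The remaining rises ranged over cell structure, lipid handling and binding of calcium. Rec8, a cohesin subunit of meiosis, was already expressed without DEX (3.00 and 0.72) and reached 6.00 and 4.40, a rise of 3.34. The arrays of the 2 slides stood 2.28 apart without DEX and 1.60 apart with it, and in the limma fit without the block the adjusted p was 1.00. Nrgn, the calmodulin-binding protein neurogranin, rose 8.67-fold (-0.05 and -0.66 without DEX, 2.93 and 2.59 with it). Anxa2, which binds phospholipids in the presence of calcium, rose 8.07-fold from 2.77 and 2.12 to 5.96 and 4.96. Abcg1, an exporter of cholesterol, rose 6.30-fold (slides 2.74 and 2.57), and Ephx2, the soluble epoxide hydrolase, 7.03-fold. Slc18a1, a vesicular monoamine transporter, Crybg1, Gask1b and the vesicle motor Myo5b rose between 4.21-fold (Myo5b) and 5.38-fold (Slc18a1).

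The genes that fell included enzymes, ligands and transporters. Mgll, which hydrolyses monoglycerides (chr6:88778292-88778351), was at -0.50 and -0.68 without DEX and -4.03 and -3.92 with DEX. The 10.4-fold fall (difference -3.38, SE 0.22, limma with the slide block, adjusted p = 0.0288) was seen with its other tested probes as well, at -3.70 and -2.90. Nacad, related to the nascent polypeptide-associated complex (chr11:6498603-6498896), had levels of -0.58 and -1.18 and of -4.14 and -4.39, again far apart. Artn, the GDNF-family ligand artemin (chr4:117598825-117598884), fell 13.0-fold, from -1.45 and -2.11 to -5.28 and -5.68. Prss50, a protease-like gene known from testis (chr9:110766789-110766848), fell 13.3-fold from -0.32 and -1.05 to -4.27 and -4.57. An unnamed probe on the same chromosome, at chr9:110760935-110760994, also fell; it was not well above background with DEX and was at least 3.41-fold lower. 4930413F20Rik, with no known role, was at -4.39 and -3.69 without DEX and below background with it, and was at least 4.95-fold lower.

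Signalling and transport genes also fell. Ptpn14, a tyrosine phosphatase, fell 8.14-fold, from 1.43 and -0.76 to -1.69 and -3.69. Here the untreated array of slide 2 and the DEX array of slide 1 were only 0.93 apart, and the fall is seen within slides. Slc23a1, an ascorbate transporter, fell 7.24-fold (slides -3.15 and -2.56). Slc17a7, a vesicular glutamate transporter, was not detected with DEX and was at least 4.13-fold lower. B4galnt2, a glycosyltransferase, and Apol11b each had 1 of 2 DEX arrays above background, and their differences were -2.70 and -2.66. Ikzf4, a zinc finger factor of the Ikaros family, fell from -1.06 and -0.92 to -3.57 and -3.71, but its other probes ranged from -2.63 to -0.02. Other falls were those of Cox6a2, the muscle-type subunit of cytochrome oxidase, at -2.59, the meiotic gene Rnf212 at -2.30 and the lymphatic growth factor Vegfd at -2.01.

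**Figure D2:**
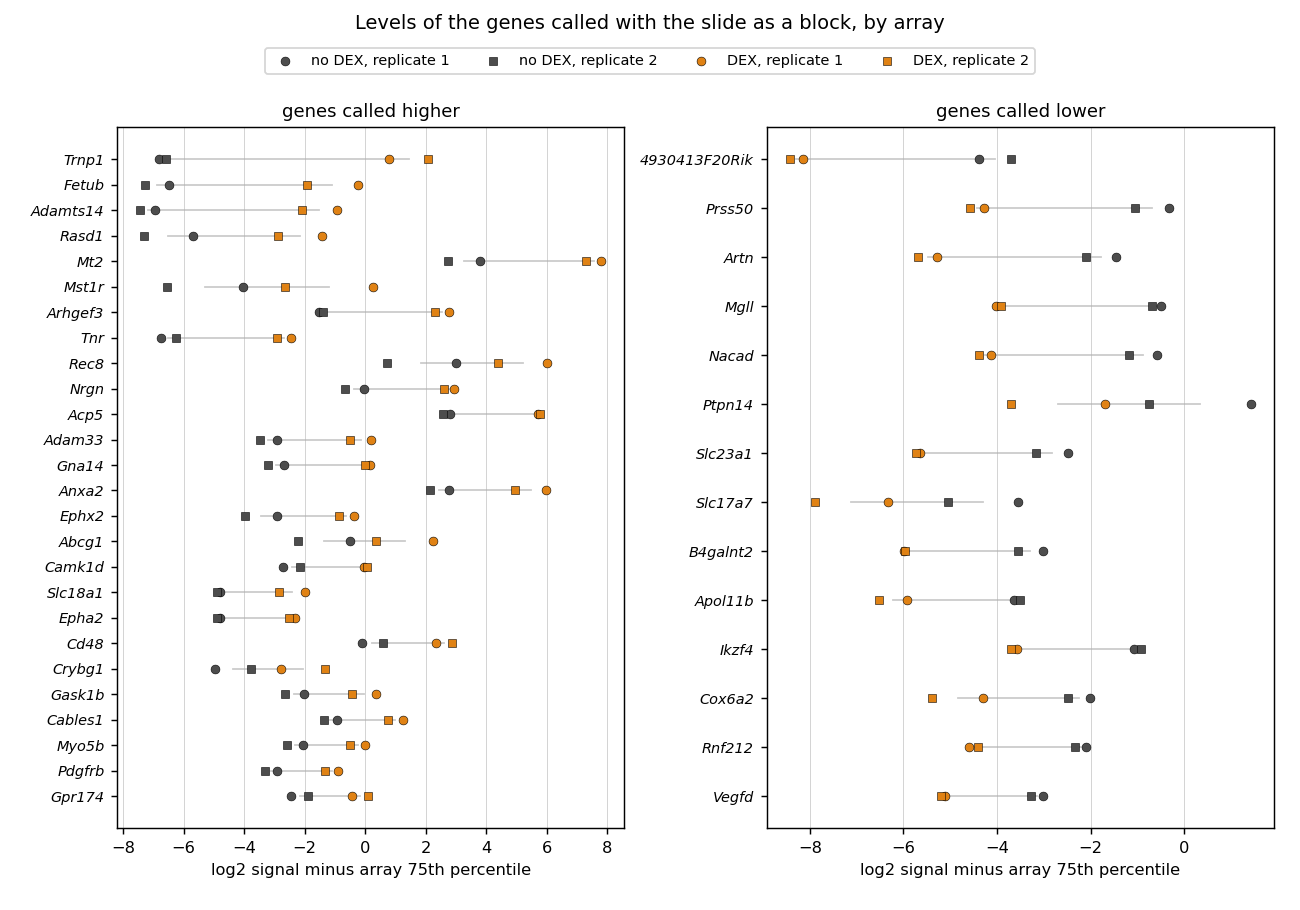
Level of the genes described that were called with the slide as a block on the 4 control-virus arrays (log2 signal minus the array's 75th percentile), for genes called higher (left) and lower (right). Grey lines join the group means; in each row the 2 DEX arrays lie on one side of the 2 untreated arrays.

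Genes classed as classic glucocorticoid targets were higher as a list but few passed the test. Of 35 tested, Mt2 and Rasd1 rose (2 of 35, against 0.141% of all genes), 6 were 2-fold higher (1.68% of all genes) and 1 was 2-fold lower (2.05%). Their median difference was 0.51 (0.73 and 0.25 on the slides) against -0.08 over all genes. Minus the median of all genes it was 0.59, and 0.31 without replicate 1 with DEX. Fkbp5, a co-chaperone that dampens the receptor, was at -0.30 and 0.61 without DEX and 2.24 and 2.44 with it, a difference of 2.18 (adjusted p = 0.0619). Bcl6, a transcriptional repressor, went the other way at -2.03 and -1.99. The receptor gene Nr3c1 was at 2.02 and 2.48 without DEX and 1.77 and 2.77 with DEX, and its groups overlap. Of the 20 receptor, chaperone and coregulator genes tested, 0 were called and 0 were 2-fold apart, with Hsp90ab1, the chaperone that holds the unliganded receptor, differing by -0.04 and 0.12. Zfp36l2, the RNA-binding protein of the study, was at 3.49 and 3.85 without DEX and 5.55 and 5.42 with it (adjusted p = 0.0721), and was the 1 of 29 genes of the ZFP36 family and mRNA decay machinery that was 2-fold apart. Among 20 clock genes the 1 that was 2-fold higher was Per1, a repressor of the clock and itself a receptor target, at 1.25 and 1.27 on the slides (adjusted p = 0.0909). Its other tested probe differed by 0.23.

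The exact full receptor-binding palindrome was rare in the promoters. Full sites with other letters, or farther from the gene start, were not searched. The receptor is known to bind as a dimer to pairs of inverted elements spaced by 3 bases. The pair searched here was AGAACA, any 3 bases, then TGTTCT, a palindrome that reads alike on both strands. It occurred in 3 of 32851 RefSeq windows (0.00913%) of 300 bases around gene starts (250 before and 50 after), and in 0 of the 28 windows of the 18 risen genes that had one. One of the 3 lies before Sgk1, a kinase gene often used as a readout of the receptor, on the forward strand of GRCm38.p6 at chr10:21993640-21993889. It is shown because it is the one full match among the 14081 windows of tested genes, with the match in capitals.
Sgk1: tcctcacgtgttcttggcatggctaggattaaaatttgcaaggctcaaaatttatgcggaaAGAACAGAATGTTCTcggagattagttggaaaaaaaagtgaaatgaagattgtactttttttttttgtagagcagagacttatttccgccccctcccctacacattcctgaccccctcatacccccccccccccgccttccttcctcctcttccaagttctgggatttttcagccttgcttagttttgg
The match begins 189 bases before the start. Sgk1 levels were -2.30 and -2.90 without DEX and -1.63 and -2.36 with DEX, which overlap between the groups, and its differences of 0.67 and 0.54 were not called (limma with the slide block, adjusted p = 0.334). The single element AGAACA on either strand, which every full match also holds, was in 17.9% of the 28 windows of risen genes, in 8.33% of the 12 of fallen genes and in 13.7% of the 14081 of tested genes.

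Metallothioneins bind zinc and copper and are induced by metals through a zinc-sensing factor. Mt2 had levels of 3.81 and 2.72 without DEX and 7.80 and 7.28 with DEX, a 19.4-fold rise (difference 4.28, SE 0.40, limma with the slide block, adjusted p = 0.0413). Its neighbour Mt1 was at 6.66 and 6.45 without DEX and 8.02 and 7.34 with it, differences of 1.36 and 0.89 that were not called. The zinc exporter Slc30a1, also a target of the zinc-sensing factor, was lower on both slides, at -1.29 and -1.06. Of 17 genes on the metallothionein and zinc list, 1 rose (0.141% of all genes did) and 14 were higher in the mean (38.4% of all genes). The stretches of 250 bases before Mt2 (chr8:94172368-94172617) and Mt1 (chr8:94178839-94179088), both on the forward strand of GRCm38.p6, are shown to set the pair side by side. Capitals mark the core of the metal response element, TGCNCNC, on either strand; this motif was added after the values were seen.
Mt2: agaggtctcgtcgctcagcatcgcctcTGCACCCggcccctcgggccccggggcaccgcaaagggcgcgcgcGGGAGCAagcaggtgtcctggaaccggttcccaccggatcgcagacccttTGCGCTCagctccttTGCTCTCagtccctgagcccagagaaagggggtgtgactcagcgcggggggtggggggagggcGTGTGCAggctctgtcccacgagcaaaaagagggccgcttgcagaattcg
Mt1: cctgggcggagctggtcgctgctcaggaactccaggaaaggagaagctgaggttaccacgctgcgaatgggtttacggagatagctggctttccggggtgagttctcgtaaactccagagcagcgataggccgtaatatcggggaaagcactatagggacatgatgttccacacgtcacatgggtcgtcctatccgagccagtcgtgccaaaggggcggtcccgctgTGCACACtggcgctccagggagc
The Mt2 stretch holds 5 matches and the Mt1 stretch 1. For each gene the RefSeq window with the most matches was the one shown. Matches outside the 250 bases were not counted, so both numbers depend on where the start is annotated. At least 1 match stands in 44.4% of all 32851 stretches of this length, and at least 5 in 0.344%. Neither holds the full receptor palindrome.

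Receptors for cytokines and growth factors included several of the larger differences. Of 44 tested, Mst1r and Pdgfrb rose, against 0.141% of all genes. On both slides 7 were 2-fold higher (1.68% of all genes) and 0 were 2-fold lower (2.05%). The median of the list was -0.003, against -0.08 over all genes. Il1r1, the signalling receptor for interleukin 1, was not detected without DEX and lay at -0.39 and -2.50 with it, at least 28.7-fold higher. Its adjusted p of 0.0791 is for the measured difference, which uses signal at background, and not for the bound. Il1rl1, the receptor for interleukin 33, was at -0.26 and 0.01 without DEX and 4.21 and 2.80 with DEX (difference 3.63, adjusted p = 0.0604). Fgfr1, a receptor for fibroblast growth factors, had -3.59 and -3.77 against 0.89 and -0.27 with 1 of its 3 tested probes, whereas the other probes differed by 0.13 and 3.00. Il10ra, a chain of the interleukin 10 receptor, and Il9r, the interleukin 9 receptor, differed by 2.28 and 1.55. The groups did not overlap for any of these 5 genes, as they did not for 10.4% of all genes higher with DEX (and 16.5% lower). Csf2rb and Csf3r, shared by or specific to myeloid growth factors, differed by 0.71 and -0.01.

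Kit and erythropoietin receptor signalling drives survival and division of these cells. Kit itself, the receptor for stem cell factor and a marker of the sort, was at 1.99 and 1.89 without DEX and 3.88 and 3.45 with DEX, a difference of 1.72 (SE 0.25, adjusted p = 0.0802). Epor, the erythropoietin receptor, differed by -0.36 and -0.12. Socs1, a feedback inhibitor of JAK kinases, was 4.67-fold higher (-1.74 and -2.14 against 0.30 and 0.27). Cish, another such inhibitor, was at 3.57 and 3.04 against 3.12 and 2.00, and Socs3 differed by -0.92 and -2.06. Pik3r1, the regulatory subunit of phosphoinositide 3-kinase, was 2-fold lower, with differences of -1.01 and -1.15. In all, 0 of 32 genes were called, 2 were 2-fold higher and 1 was 2-fold lower, with a median of 0.21 against -0.08.

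Early progenitor genes did not move as one. Cd48 and Nrgn rose, Vim, an intermediate filament of immature cells, was 4.82-fold higher (1.53 and 2.09 against 4.21 and 3.95), and Spi1, the myeloid factor PU.1, was 2.30-fold higher. Mycn was 2-fold lower, at -2.87 and -1.54 against -4.42 and -4.30. Myb, which sustains immature cells, differed by 0.79 and 0.39, and Gata2 did not pass the filter on dim probes. Of 36 tested, 2 rose (0.141% of all genes did), 5 were 2-fold higher (1.68% of all genes) and 1 was 2-fold lower (2.05%). The median was 0.15 on slide 1 and -0.28 on slide 2. In the BMP and TGF-beta pathway, which renewal under stress is known to use, 0 of 35 were called. The 3 members that were 2-fold higher were Id2, an inhibitor of helix-loop-helix factors (-3.37 and -1.83 against -0.07 and -0.45), and the receptors Tgfbr2 (1.68 and 1.35) and Acvr1b (1.69 and 1.13). With its other tested probe Tgfbr2 differed by 0.92.

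G protein subunits, RGS proteins, Ras-like GTPases and exchange factors numbered 61 tested genes. Gna14, Rasd1 and Arhgef3 rose, against 0.141% of all genes. On both slides 5 were 2-fold higher (1.68% of all genes) and 0 were 2-fold lower (2.05%). Gnb4, a beta subunit, differed by 1.58 and 1.39, and Rgs19, which speeds GTP hydrolysis by alpha subunits, by 1.17 and 1.12. The median of the list, 0.04, was 0.11 above that of all genes.

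**Figure D3:**
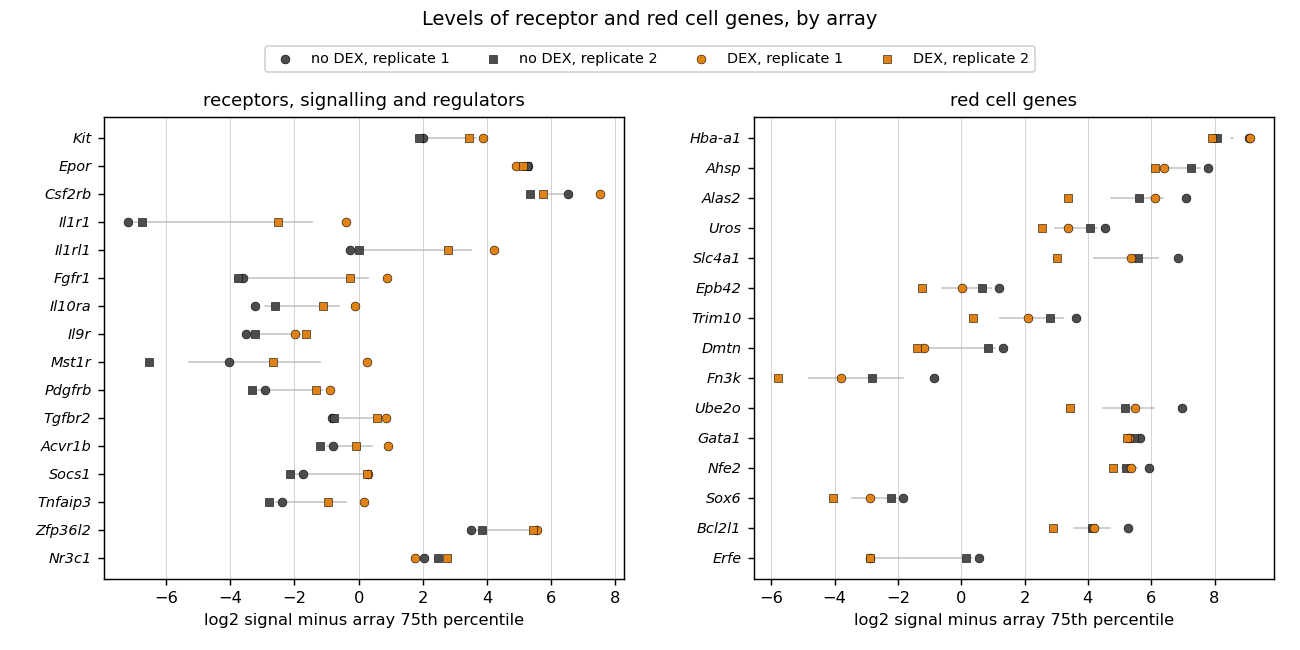
Levels on the 4 control-virus arrays (log2 signal minus the array's 75th percentile) of receptor, signalling and regulator genes (left) and red cell genes (right); grey lines join group means. The receptor genes Il1r1, Il1rl1 and Fgfr1 (1 of its 3 probes) lie higher with DEX on both slides, whereas Ahsp, Uros, Dmtn and Erfe lie lower and Hba-a1 overlaps.

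Most red cell genes lay lower with DEX, and 0 of those lower were called. Of 27 globin and haem synthesis genes tested, 0 were called, 0 were 2-fold higher (1.68% of all genes) and 3 were 2-fold lower (2.05%). Their median was -0.49 (slides -0.53 and -0.49), and 21 were lower on both slides. In the mean 5 of the 27 were higher, whereas 38.4% of all genes were. Ahsp, the chaperone of alpha globin, was at 7.81 and 7.26 without DEX and 6.40 and 6.11 with DEX (adjusted p = 0.0802). Uros, an enzyme of the haem pathway, was at 4.54 and 4.05 against 3.36 and 2.54 (adjusted p = 0.0778). For Alas2, the rate-limiting enzyme of haem production in red cells, 7.11 and 5.62 stood against 6.11 and 3.39, so that its groups overlapped and the difference was larger on slide 2. The adult alpha globin genes Hba-a1 and Hba-a2, near-identical copies whose signal may be shared, differed by -0.05 and 0.03. Relative to all genes the list's median was -0.42, against -0.20 without replicate 2 with DEX and -0.65 without untreated replicate 2.

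Among 47 red cell membrane and late erythroid genes, 1 rose (Acp5, which is not specific to red cells), against 0.141% of all genes. On both slides 1 was 2-fold higher (1.68% of all genes) and 9 were 2-fold lower (2.05%). The median of the list was -0.54. Fn3k, which removes sugar adducts from proteins, differed by -2.92 and -2.97 (adjusted p = 0.0597). Dmtn, the membrane skeleton protein dematin, was at 1.31 and 0.84 without DEX and -1.17 and -1.38 with it (adjusted p = 0.0597). Slc4a1, the anion exchanger, had 6.86 and 5.58 against 5.35 and 3.01, and its nearest levels in the 2 groups were 0.22 apart. Trim10, a ubiquitin ligase of late erythroid cells, the ligase Ube2o, which clears proteins in reticulocytes, and Epb42, protein 4.2 of the membrane, differed by -1.98, -1.60 and -1.54. For Ube2o the groups overlapped. Car2, a carbonic anhydrase, and the surface protein Cd47 differed by -0.11 and -0.28. Relative to all genes the median was -0.46, against -0.24 without untreated replicate 1 and -0.71 without untreated replicate 2.

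Regulators of the erythroid programme differed less. Of 28 tested 0 were called, and the median was -0.32. Gata1 and Nfe2 differed by -0.26 and -0.50, Klf1 by -0.59 and -0.24 on the slides, and Tal1 by -0.52 and -0.89. Sox6, which helps to silence embryonic globin, was at -1.83 and -2.21 against -2.88 and -4.05. Bcl2l1, the survival factor of maturing red cells, differed by -1.06 and -1.22 on the slides, although its groups overlapped. Nfia, a nuclear factor, was not detected without DEX and was at least 2.33-fold higher. In iron handling, Erfe, the erythroid hormone that lowers hepcidin, was the 1 member of 24 that was 2-fold lower. It was at 0.56 and 0.14 without DEX and -2.89 and -2.89 with DEX, a 9.45-fold difference (SE 0.36 on the log2 scale, adjusted p = 0.0597). Tfrc, the transferrin receptor CD71 used in the sort, had 4.75 and 4.60 against 3.29 and 3.99, and ferritin genes Ftl1 and Fth1 differed by -0.16 and 0.04.

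Cell cycle genes showed few large differences. Of 43 DNA replication genes 0 were called and 0 were 2-fold apart, with a median of -0.49 on slide 1 and -0.07 on slide 2. Of 38 genes of G2 and mitosis, Cdc25b, a phosphatase that activates the mitotic kinase, was the 1 that was 2-fold lower (3.93 and 2.84 against 2.55 and 1.24, adjusted p = 0.0656). All 38 were lower in the mean, whereas 38.4% of all genes were higher. Relative to all genes these 2 medians changed sign without replicate 1 with DEX (to 0.20 and 0.15). Among cyclin-dependent kinase inhibitors, Cdkn1c, encoding p57, was at -2.92 and -3.76 against -0.62 and -1.74. Cdkn2a was higher by 1.60 and 1.95 within slides, although its groups overlapped, and Cdkn2c lower, at -1.16 and -1.02. Ccnd3, the D cyclin that sets the number of terminal divisions, was at 6.00 and 5.54 against 5.13 and 4.61, a difference of -0.90. Cytosolic ribosomal protein genes gave 0 calls and 0 2-fold differences among 90.

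Genes of lipid metabolism moved in both directions. Mgll fell. Fabp4, a fatty acid carrier, had the largest measured difference of the 40 tested, -4.46, with 0.26 and -3.12 without DEX and -3.24 and -8.53 with it, and was detected on 1 of 2 DEX arrays (adjusted p = 0.0732). Lpl, which hydrolyses triglycerides of lipoproteins, was at -1.34 and -1.01 against 0.99 and 1.67, the nuclear receptor Pparg was higher by 1.35 and 1.45, and Acaa2, a thiolase of fatty acid oxidation, by 1.49 and 1.12. Of 25 cholesterol genes Abcg1 rose (0.141% of all genes did) and 0 were 2-fold lower (2.05%). Among 255 solute carrier genes 1 rose (0.141% of all genes did) and 2 fell (0.0889%). On both slides 11 were 2-fold higher (1.68% of all genes) and 12 lower (2.05%). The nucleoside transporter genes Slc28a2 and Slc28a2b, which are related and may share signal, were at 0.35 and -0.02 and at -1.89 and -1.78 with DEX, and each was well above background on 1 array without it. Slc26a9, an anion transporter, differed by 3.51 and Slc2a4, the insulin-responsive glucose carrier, by -2.88 (both adjusted p = 0.0597).

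In the glycolysis and hypoxia list 0 of 35 were called and 3 were 2-fold higher. Egln3, an oxygen-sensing prolyl hydroxylase, was at -0.43 and -1.04 without DEX and 2.47 and 2.61 with it, a 9.65-fold difference (adjusted p = 0.0911). Hif3a, a member of the hypoxia-inducible factors, was at 2.00 and 2.44 against 3.49 and 3.98 (adjusted p = 0.0629), and P4ha2, a collagen prolyl hydroxylase, was 2.41-fold higher. The glycolytic genes Aldoa and Gapdh differed by 0.08 and 0.01. Of 91 respiratory chain and ATP synthase genes, Cox6a2 fell and none of the others was 2-fold apart on both slides.

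Stress and survival genes were mixed. Of 38 genes of the ATF4 and unfolded protein response 0 were called and 3 were 2-fold lower: Slc7a11, the cystine importer (-1.75 and -1.82), Trib3, a pseudokinase (6.19 and 4.89 against 4.76 and 2.92), and Ddit3, encoding CHOP (-1.39 and -1.76). For Ddit3 the groups overlapped. Atf4 itself differed by -0.73 and -0.46. Of 31 p53 targets 0 were called and 3 were 2-fold higher, with Perp, a protein of cell junctions, at 0.01 and 1.27 against 3.63 and 3.39. Gadd45a and Gadd45b, induced by DNA damage and stress, were 2-fold lower, at -1.78 and -1.38, although the Gadd45a groups overlapped. Pmaip1, a pro-death BH3 protein, was 2-fold higher at 1.59. Maff, a small Maf factor, was at -3.34 and -3.51 against -0.32 and -1.24. The glutathione transferase gene Gsta4 was 3.55-fold higher. Of 21 integrin genes 0 were called, 1 was 2-fold higher and 2 were 2-fold lower. Itgb2, the shared beta chain of leukocyte integrins, was higher by 1.09 on each slide. Itgb5 differed by -1.12 and -2.02, and Itga8, whose groups overlapped and which was detected on 1 of 2 DEX arrays, by -1.83 and -1.14.

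Inflammatory genes, which glucocorticoids are known to restrain, gave 0 calls among 23. Tnfaip3, the A20 brake on NF-kappa-B, was at -2.38 and -2.79 without DEX and 0.18 and -0.95 with DEX (difference 2.20, adjusted p = 0.0724), whereas Nfkbia, the inhibitor of NF-kappa-B, differed by 0.73 and 0.30. Csf1, the macrophage growth factor, was lower by 2-fold, at -1.38 and -1.84. The transcription factor gene Rela differed by -0.01 and 0.02. Among 31 interferon-stimulated genes 0 were called, 0 were 2-fold higher (1.68% of all genes) and 7 were 2-fold lower (2.05%). Ifit1 was not detected with DEX and was at least 7.42-fold lower, and Rsad2, an antiviral enzyme, had 0.97 and -2.04 against -1.61 and -5.37. The median of the list was -0.26 on slide 1 and -1.01 on slide 2. Bst2, a tether of budding virus particles, and Irf9, a subunit of the interferon-activated factor, differed by 0.59 and 0.43.

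Markers of other blood cells differed by slide, and 0 genes of these lists were called except where stated. The summed level of the 18 tested neutrophil and granulocyte markers was 5.39 and 7.58 without DEX and 5.29 and 6.12 with DEX, so the untreated array of slide 2 stood above the other 3. Their median difference was 0.04 on slide 1 and -1.61 on slide 2. Monocyte and macrophage markers (14 of 25 tested) had sums of 2.23 and 3.14 without DEX and 1.86 and 1.06 with it, with medians of -0.46 and -2.32. Relative to all genes their median was -1.30, but -0.26 without untreated replicate 2 and -2.35 without untreated replicate 1. Among them Ctss was at -3.51 and -1.47 against -5.28 and -4.68, and Cx3cr1 at -3.90 and -1.52 against -5.36 and -4.99. Megakaryocyte and platelet markers (20 of 21 tested) had sums of 6.23 and 6.67 against 6.04 and 5.50. On both slides 6 of them were 2-fold lower (2.05% of all genes), with the chemokine gene Ppbp at -2.62 and -3.08. In these bulk samples fewer cells of a type and less RNA per cell cannot be told apart. The part of these markers in the interferon and inflammation values, which also differed more on slide 2, was not tested.

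Mast cell and basophil markers split. Hdc, which makes histamine, was at 1.23 and 2.26 without DEX and 5.27 and 3.92 with it. Cd200r3, a basophil and mast cell receptor, was higher by 2.52 and 1.01 within slides, although its groups overlapped. Mcpt8, a basophil protease, and Prg2, an eosinophil granule protein, were lower, at -2.95 and -2.88. The defining genes Fcer1a, Ms4a2, Tpsab1 and Mcpt4 were among 7 of 21 that did not pass the filter on dim probes. Sums over the 14 tested were 4.55 and 5.08 without DEX and 6.56 and 5.63 with it. These sums weigh most the members at the highest levels, Hdc and Srgn. Srgn was at 3.91 and 4.32 without DEX and 5.48 and 4.94 with it, and was not called. The median difference of the list was -0.54 (0.079 on slide 1 and -0.999 on slide 2). In the mean 6 of the 14 were higher and 8 lower, so the higher sums do not describe the list as a whole. The receptor gene Il1rl1, above, is also known from mast cells, and the part of such cells in its value was not tested. For plasma protein genes of the fetal liver, Fetub rose, and Ahsg, a related fetuin, was at least 16.2-fold higher, while Apoa1, detected on 1 of 2 arrays without DEX, was higher by 5.22 and 3.43. Of that list 15 of 30 genes did not pass the filter, Alb, Ttr and the fibrinogen genes among them, and Apoc1 was 2-fold lower. Sums were 2.76 and 2.97 against 3.23 and 2.55. The median of these 15 genes was 0.10 on slide 1 and 0.08 on slide 2 but -0.33 for the mean of both, so its sign is not settled. Of 10 lymphoid markers tested 0 were 2-fold apart, and of 8 endothelial and stromal ones Pdgfrb rose and Esam, a junction protein detected on 1 of 2 DEX arrays, was 2-fold lower.

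**Figure D4:**
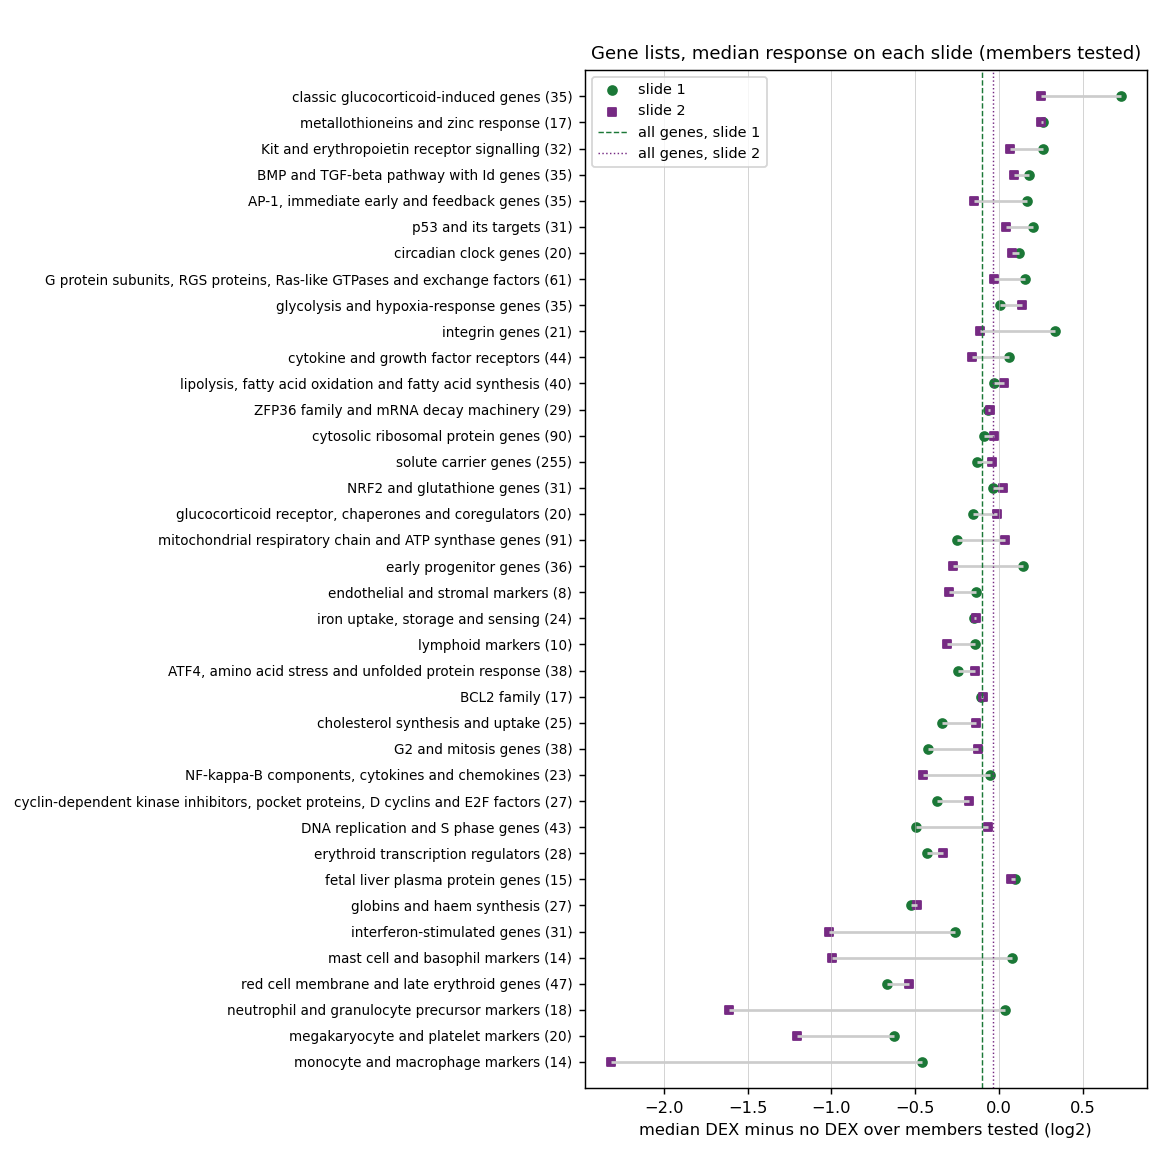
Median log2 difference between DEX and no DEX over the tested members of each gene list (their number in brackets) on slide 1 (circles) and slide 2 (squares), with the medians of all genes as vertical lines. Classic glucocorticoid-induced genes have the highest medians, at 0.73 and 0.25, and the monocyte, neutrophil and mast cell lists differ most between slides.

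Some genes were well above background in one group only. This held for 129 genes with DEX alone (0.674%) and 128 without DEX alone (0.669%). Bounds of at least 4-fold were found for 11 of the former and 5 of the latter. Besides the genes already given, Mmp2, a gelatinase that degrades matrix, was at -2.31 and -1.96 with DEX and at least 17.8-fold higher (adjusted p = 0.0515 for the measured difference, not the bound). Spink2, a protease inhibitor, was at least 14.4-fold higher. On the other side Abca8b, a transporter of the ABC family, was at -4.02 and -4.03 without DEX and not well above background with it, at least 5.0-fold lower. Bounds for Mndal, an interferon-inducible gene, Ccl6, a chemokine, Cpne6, a calcium-binding copine, and Il21r, the interleukin 21 receptor, lay between 3.55-fold (Il21r) and 4.38-fold (Mndal). The largest differences of opposite sign were those of Cd209b (-3.39 and 3.30), Zfp879, Fgd4 and Lce1k, with levels between -8.69 and -3.17. For these 4 genes the 2 untreated arrays stood farther apart than the 2 DEX arrays.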

How the data were processed

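Total RNA of 8 samples was hybridised to 1-colour Agilent arrays. Per the file headers, the authors quantified them with Agilent Feature Extraction 10.1.1.1, with detrending switched on and surrogates replacing signals at background, and the deposited intensity (processed signal) is linear. A log2 table made by the authors, by steps that the sources used here do not give (array medians 6.65 to 6.66), served as an alternative. Positions of probes are mm9, per the file headers. Lacking an annotation on mm9, exons and UTRs are not stated.

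From each array 1377 of 44397 spots were controls and were left out, with outlier spots. Spots of a probe were averaged, 441 of 39429 probes lacking a usable spot were dropped, and log2 signal was scaled by the array's 75th percentile. RefSeq accessions named 26581 probes, and 12848 kept the file's name. A probe entered the tests when both arrays of any of the 4 groups were well above background, and the brightest probe stood for a gene (3900 of 19130 had several). The number of arrays limits the precision. A gene not detected on either array of a group has only a bound, set by the lowest signal well above background on each array or its own, whichever is higher.

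The test was limma 3.58.1 (lmFit and eBayes, R 4.3.3) over all 8 arrays, with a Benjamini-Hochberg adjusted p below 0.05. Replicate numbers pair the samples because the file headers put each number on 1 slide; deviations from group means of same-numbered arrays had r = 0.67 between the 2 groups compared and 0.43 to 0.86 over all pairs of groups. So the slide was also fitted as a block, and SEs and adjusted p-values quoted without further remark are from that fit. The script was tested on simulated data. A gene list is described by counts and its median. Summed levels are log2 of summed scaled signal.

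Genes named were those called (array values for the 14 largest rises and 12 largest falls), members of each list that were called, at least 2-fold the same way on both slides (at most 6) or at the 2 highest levels, the 8 largest bounds each way, the 4 smallest p without the block, the 4 largest opposite differences, Zfp36l2 and Nr3c1. Some further list members (such as Klf1, Tal1, Myb, Cish, Socs3, Nfkbia, Tfrc and Sgk1) were named after their values were seen. The members and lists were chosen with earlier results of these data known. A few called genes are not reported here. Promoter windows are those of RefSeq on GRCm38.p6, of which 11182 tested genes had one.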

Additional observations from a re-analysis of the deposited data

How the results depend on the processing

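Settings moved the count of 44 genes called with the slide as a block. It was 112 with the array median as the scale (37 of the 44 among them), 16 with quantile scaling (15), 155 with normexp background correction (35) and 72 in the authors' log2 table (30). With no filter on dim probes it was 0, with limma-trend 135 (42), and in the 4 control-virus arrays alone with the replicate block 194 (all 44). No replicate block gave 0, and, conversely, the count of 0 without a block became 44 with the slide as a replicate block. Leaving out 1 array gave 0 to 130 blocked calls and 0 unblocked calls in each of the 8 cases; the lone array of a group was then assumed to vary like the other groups. The share of calls that were higher was 61.4%, and 66.1%, 68.8%, 54.8% and 56.9% under median, quantile, normexp and the authors' values. The 714 genes 2-fold apart on both slides became 349 with normexp and 373 in the authors' values, and their split of 321 higher and 393 lower became 389 and 320 with median scaling. The 42 named genes among the 44 kept their direction in all 630 of their values under the alternatives tried, of which 348 were no longer past the threshold. Direction could hardly change, because the genes were picked for large differences on these same arrays. Removing the block or a hairpin array, or fitting the control-virus arrays alone, leaves the difference itself unchanged. Signal over background limits the fold to a bound for 5 genes called higher, not detected without DEX, and 4 called lower, not detected with it. These bounds hold only for the main processing. Across the alternatives the log2 difference nearest to none was 5.52 for Trnp1, 3.10 for Fetub, 2.72 for Adamts14 and 1.75 for Tnr. For Slc17a7 it was -0.86 and for 4930413F20Rik -1.16. Each is a smaller fold than the bound given for that gene.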

Other observations

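The 4 hairpin arrays, all with DEX, were not compared here, but their levels of the called genes can be set beside those of the control-virus arrays. Arhgef3 was at 2.06 and 1.48 with shRNA1 and 1.91 and 1.66 with shRNA2, next to 2.76 and 2.31 with control virus and DEX. Mt2 was at 7.26 and 6.94 and at 6.72 and 7.31. Mgll lay at -3.29 and -3.24 and at -4.31 and -3.87, Artn at -4.04 and -3.85 and at -5.48 and -6.13. Cox6a2 was at -2.26 and -2.54 and at -1.25 and -2.06, near its levels without DEX of -2.01 and -2.49. Adam33 differed between the hairpins, at 1.80 and 0.68 with shRNA1 and -1.87 and -2.29 with shRNA2. These genes were chosen after their values were seen, hairpin arrays without DEX were not analysed here, and no test was made.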
